A study of Mus musculus with 24 samples.

Results

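The neural retina of adult mice was examined for genes whose response to doxycycline (dox) depended on the genotype. All 12 retinal libraries of the 24 in the series entered this experiment, and the remaining 12 were eye cups. PRDM13-OE mice carried 1 copy of a construct at the Rosa26 locus on a C57BL/6J background, in which the ubiquitous EF-1α promoter drives rtTA, the protein that binds dox, and the TRE3G promoter that rtTA switches on drives 3xHA-tagged human PRDM13. Wildtype littermates carried no construct. Mice of each genotype were left untreated or drank water with 2 mg/ml dox and 10% sucrose for 72 hours, which gave 4 groups of 3 mice, with the sexes uneven over the groups. The construct is not restricted to a cell type, so the human gene could be induced in any cell of the retina. The interaction was the log2 change with dox in PRDM13-OE retinas minus the log2 change with dox in wildtype retinas, and it is 0 for a gene that dox, the construct or both shift by separate fixed amounts. Of 22538 genes tested, 196 were called for the interaction, at an adjusted p under 0.05 and an interaction past 1 on the log2 scale in either direction (edgeR's quasi-likelihood test with Benjamini-Hochberg adjustment, used for every adjusted p here).

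PRDM13 is a zinc finger protein of the PRDM family that acts on transcription in the developing nervous system. In the retina its mouse gene is made in amacrine cells, the interneurons of the inner retina, and helps to set their subtypes. Rods and cones, the photoreceptors of the outer retina, turn light into a fall of cyclic GMP: an opsin activates the G protein transducin, transducin activates phosphodiesterase 6, and the loss of cyclic GMP closes a cation channel. Rods and cones use separate genes for most of these steps, and transcription factors such as CRX, NRL and NR2E3 hold the rod and cone programmes in place.

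Some of the 12 libraries stood apart. Each retina had between 16034800 and 21513207 counts. Reads of the induced human gene were not analysed here. Gm13394, a predicted gene whose counts separated the genotypes, stood at 8651 to 9733 counts in the 3 PRDM13-OE retinas with dox and at 44 to 89 counts in the 6 wildtype retinas. The 3 retinas labelled untreated PRDM13-OE had 79, 8674 and 8023 counts, so the first of them was at the wildtype level, and the eye cup with the same label had 62. The genotype of this mouse therefore went against its label by this measure. It is called the retina labelled untreated PRDM13-OE 1 below. Without it, 74 genes were called higher and 99 lower, of which 59 and 91 were among the calls made with all 12 retinas. The wildtype retinas with dox 1 and 2 also stood apart: the 16 lens crystallin genes, which encode the main proteins of the lens, summed to 12758 and 5680 CPM (reads of a gene relative to the TMM-scaled total of its library) in them, against 31.2 to 1010.4 CPM in the other 10 retinas. Without these 2 libraries 47 genes were called higher and 81 lower, of which 33 and 67 were among the calls with all 12. The sexes also differed between the groups. Ddx3y, a gene of the Y chromosome, had 938 to 1305 counts in 4 of the 12 retinas and 0 in the rest, which put males at 0 of 3 in PRDM13-OE with dox, 1 of 3 in untreated PRDM13-OE, 1 of 3 in wildtype with dox and 2 of 3 in untreated wildtype. With Xist, which is transcribed from the inactive X chromosome of females, as a covariate, 79 genes were called higher and 110 lower. Mouse Prdm13 itself lay between 44.8 and 60.3 CPM in all 12 retinas, with an interaction of 0.15 ± 0.11 (SE) (adjusted p = 0.586 by edgeR).

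Of the 196 called genes, 80 had a higher interaction (0.355% of the genes tested) and 116 a lower one (0.515%). At an adjusted p under 0.05 with no fold cutoff, 269 genes were higher and 413 lower, and DESeq2 called 80 and 140. The position of each group was read from the values that made the calls, so it describes them and gives no support. The calls came mostly from the PRDM13-OE retinas with dox. In 62 of the 80 higher genes all 3 of these retinas lay above the other 9, which 4.52% of all genes tested did, and in 100 of the 116 lower genes all 3 lay below the other 9, which 4.82% of all genes did. All 3 wildtype retinas with dox lay below the other 9 in 10 of the 80 higher genes (1.06% of all genes) and above the other 9 in 5 of the 116 lower genes (0.954%). The untreated groups stood apart in fewer: the PRDM13-OE group below the others in 1 higher gene (0.262%) and above them in 4 lower genes (0.342%), and the wildtype group above the others in 1 lower gene (0.657%) and below them in 0 (0.63%). Only 3 called genes had the wildtype dox retinas apart without the PRDM13-OE dox retinas also being apart, all of them higher, and 31 had neither group apart.

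The interaction is made of the simple effects and rests on the same libraries, so calls shared between them are not separate support. With dox against untreated within PRDM13-OE, 87 genes were called higher (0.386%) and 134 lower (0.595%), and they held 44 of the 80 and 81 of the 116. Within wildtype, edgeR made 0 calls for dox, where 1902 genes had p under 0.05 before adjustment, and DESeq2 called 17 higher and 2 lower. Between the untreated genotypes edgeR also made 0 calls, where 1164 genes had p under 0.05 before adjustment and DESeq2 called 1. The untreated PRDM13-OE group of this comparison included the retina with 79 counts of Gm13394, beside 8674 and 8023 in retinas 2 and 3. By this measure the group did not hold carriers alone, and it also enters the dox comparison within PRDM13-OE. With dox, 158 genes were higher in PRDM13-OE than in wildtype (0.701%) and 272 were lower (1.21%), among them 60 of the 80 and 102 of the 116. The median change with dox over the 116 lower genes was -1.26 in PRDM13-OE and 0.08 in wildtype on the log2 scale. Over the 80 higher genes these medians were 1.16 and -0.45. The genes were selected on the difference between these 2 changes, so the medians only describe the calls. The change in wildtype was under 0.5 in size for 91 of the 116 and 45 of the 80, against 77.7% of all genes. Of the called genes, 19 higher and 13 lower ones were called neither for dox within PRDM13-OE nor between the genotypes with dox.

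**Figure D1:**
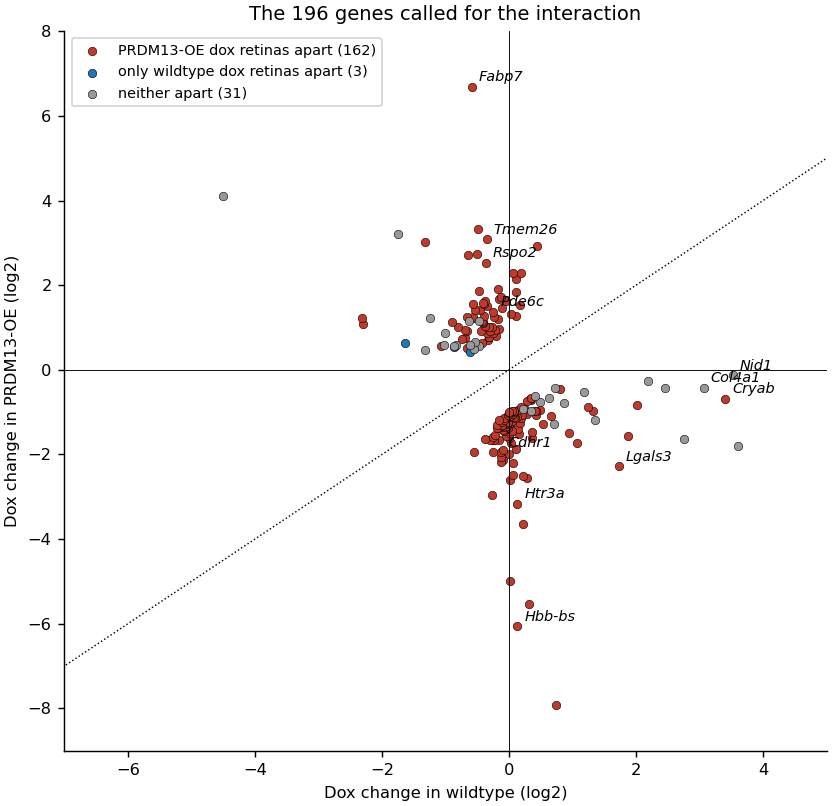
Log2 change with dox in wildtype (x axis) against the log2 change with dox in PRDM13-OE (y axis) for the 196 called genes, 1 point per gene. The dotted line marks an equal change in both genotypes. The 162 genes whose PRDM13-OE dox retinas lie apart from the other 9 are red, 3 with the wildtype dox retinas apart only are blue and 31 with neither are grey.

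The kinds of gene differed between the directions. Protein-coding genes made up 105 of the 116 lower genes (90.5%) and 37 of the 80 higher ones (46.3%), against 71.4% of all genes tested. Long noncoding RNAs made up 10 lower genes (8.62%) and 38 higher genes (47.5%), against 16.0% of all genes. The highest group mean was under 5 CPM in 34 of the 80 (42.5%) and in 25 of the 116 (21.6%), against 46.2% of all genes tested. In bulk tissue, fewer cells of a type and less RNA per cell cannot be told apart, and this holds for every level given here. Of the 196, 107 (37 higher and 70 lower) were called in each of the 12 fits that left out 1 retina, and 75 (23 higher and 52 lower) were called in those fits and in 10 fits with other settings. In all 75 the PRDM13-OE retinas with dox stood apart from the other 9, as read from the same values that made the calls.

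The stretches before the starts of 4 members are shown, of Fabp7, which had the largest interaction among the higher genes called in every fit, of the adhesion gene Cdhr1 among the lower genes with the smallest adjusted p, and of 2 photoreceptor genes that fell and carry at least 1 of 3 motifs. They were read from RefSeq promoters (GRCm38.p6) and placed on GRCm39 by exact match, 5′ to 3′ on the gene's strand, ending at the base before the annotated gene start. Capitals mark the motifs, searched on both strands: the E-box CAGCTG, the CRX core GGATTA and the NR2E3 core AAGTCA. Fabp7 is on the plus strand, chr10:57660769-57660976, and holds 1 NR2E3 core, on the reverse strand. Cdhr1 is on the minus strand, chr14:36820305-36820554, and holds none of the 3. Arr3 is on the plus strand, chrX:99648853-99649102, with 1 E-box, and Aipl1 on the minus strand, chr11:71928336-71928585, with 1 E-box and 1 CRX core.
Fabp7: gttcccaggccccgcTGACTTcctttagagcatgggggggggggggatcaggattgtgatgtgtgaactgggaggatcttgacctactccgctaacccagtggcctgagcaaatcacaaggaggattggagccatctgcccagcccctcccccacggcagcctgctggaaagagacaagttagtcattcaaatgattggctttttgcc
Cdhr1: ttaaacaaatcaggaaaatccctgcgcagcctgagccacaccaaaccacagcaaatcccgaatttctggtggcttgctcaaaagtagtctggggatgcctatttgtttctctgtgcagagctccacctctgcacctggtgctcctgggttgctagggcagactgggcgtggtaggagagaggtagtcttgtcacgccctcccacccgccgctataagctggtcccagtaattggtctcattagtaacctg
Arr3: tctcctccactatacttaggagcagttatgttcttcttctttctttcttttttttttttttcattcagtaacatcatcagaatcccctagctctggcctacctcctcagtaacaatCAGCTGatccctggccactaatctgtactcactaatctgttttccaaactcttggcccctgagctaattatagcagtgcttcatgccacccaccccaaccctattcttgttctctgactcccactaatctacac
Aipl1: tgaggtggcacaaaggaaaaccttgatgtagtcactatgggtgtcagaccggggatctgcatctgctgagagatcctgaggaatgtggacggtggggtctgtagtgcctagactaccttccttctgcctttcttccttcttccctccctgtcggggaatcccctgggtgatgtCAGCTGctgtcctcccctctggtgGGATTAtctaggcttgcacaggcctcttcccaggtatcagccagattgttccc
A base may belong to more than 1 match. Over the 250 bases before the start in the RefSeq table, the E-box was in 19 of 101 windows of 80 lower genes (18.8%), in 4 of 54 windows of 45 higher genes (7.41%) and in 13.0% of the 17924 windows of all tested genes found there. The CRX core was in 12 windows of the lower genes (11.9%), in 8 of the higher genes (14.8%) and in 5.50% of all. The NR2E3 core was in 11 (10.9%), 10 (18.5%) and 10.4%. A match is a description of the letters in these windows, and no difference between them was tested.

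Fabp7, the brain fatty acid binding protein of glia and neural progenitors, had the largest fitted rise with dox in PRDM13-OE among the called genes, 6.69 ± 0.23 (SE) on the log2 scale. Its gene (ENSMUSG00000019874, chr10:57660977-57664546, plus strand) was at 104, 102 and 95.1 CPM in the PRDM13-OE retinas with dox. The retinas labelled untreated PRDM13-OE had 0.797, 1.34 and 0.738 CPM, the wildtype retinas with dox 0.457, 0.644 and 1.49 and the untreated wildtype retinas 1.8, 0.71 and 1.29. The 3 retinas with induced PRDM13, called the induced retinas from here on, stood together and far above the other 9, which did not reach 2 CPM, a mean 104-fold over the untreated PRDM13-OE group. The interaction was 7.27 ± 0.46 (SE) (adjusted p = 4.94e-08 by edgeR), and 7.16 without the retina labelled untreated PRDM13-OE 1. In FPKM, which corrects for gene length, the mean of Fabp7 was 0.93 in untreated wildtype and 72.5 in PRDM13-OE with dox. The other fatty acid binding proteins did not share this course. Of 5 tested, Fabp7 alone was called, and Fabp12, the most abundant of them in untreated wildtype at 34.0 FPKM, was lower within the cutoff with an interaction of -0.71 ± 0.12 (SE) (adjusted p = 0.00224 by edgeR).

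Tmem26 and Rspo2 were also called higher. Tmem26, a membrane protein, was at 46.1, 46.5 and 48.4 CPM in PRDM13-OE with dox and at 2.52 to 6.47 CPM in the other 9 retinas. Its mean rose 8.55-fold with dox in PRDM13-OE, for an interaction of 3.44 ± 0.31 (SE) (adjusted p = 3.74e-06 by edgeR). Rspo2, a secreted enhancer of Wnt signalling, was at 24.4, 24.4 and 22.5 CPM with dox in PRDM13-OE and at 3.74, 3.74 and 4.86 CPM in the retinas labelled untreated PRDM13-OE. Wildtype retinas had 5.26, 4.24 and 4.29 CPM with dox and 9.14, 3.82 and 4.76 CPM untreated, and the highest of these 9 was the first untreated wildtype retina. The PRDM13-OE retinas with dox did not overlap with the rest, and the interaction was 2.90 ± 0.33 (SE) (adjusted p = 4.82e-05 by edgeR).

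Slc29a4, a membrane transporter of monoamines, also rose. It was at 138, 171 and 147 CPM in PRDM13-OE with dox against 26.6 to 39.5 CPM in the other 9 retinas, with an interaction of 2.22 ± 0.16 (SE) (adjusted p = 2.91e-07 by edgeR). Prtg, an immunoglobulin family receptor of the embryo, was at 15.9, 18.9 and 21.3 CPM in the induced retinas and at 2.62 to 4.19 CPM in the other 9, with an interaction of 2.10. Ppef1, a calcium-binding protein phosphatase, reached 7.75 to 9.33 CPM against 0.591 to 1.73 CPM, with an interaction of 2.49 ± 0.46 (SE) (adjusted p = 0.00423 by edgeR). The same measure was 2.11 for Slc29a4, 3.45 for Tmem26, 2.84 for Rspo2, 2.05 for Prtg and 2.48 for Ppef1 without the retina labelled untreated PRDM13-OE 1, all with an adjusted p still under 0.05. With the wildtype dox retinas 1 and 2 left out as well, the other 4 kept their calls and Ppef1 lost its own (1.94, adjusted p = 0.0571 by edgeR).

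The remaining higher genes picked by the size of the interaction had low levels, below 8 CPM in every induced retina. Gje1, a connexin-like protein, was at 2.43 to 5.11 CPM in PRDM13-OE with dox and below 1 CPM in every other retina (interaction 3.35 ± 0.60 (SE), adjusted p = 0.00338 by edgeR). Gnat3, the transducin-like G protein subunit of taste cells, was at 1.21 to 1.82 CPM against 0.107 to 0.417 CPM, and its call was kept in 6 of the 12 fits that left out 1 retina, with an adjusted p of up to 0.0803. Among the fits that lost it was the fit without the retina labelled untreated PRDM13-OE 1 (2.97, adjusted p = 0.057 by edgeR). Insl6, an insulin-like peptide, was at 0.593 to 0.769 CPM against 0.0537 to 0.438 CPM, and was called in 3 of the 12 such fits, with an adjusted p of up to 0.125. A group of Insl6 and one of Fam71f2 had at most 3 counts in each retina, so no fold is given for them. Fam71f2 differed in that both dox groups stood apart. It lay at 0.942, 1.21 and 1.19 CPM in PRDM13-OE with dox, at 0.114, 0.0537 and 0.179 in wildtype with dox and at 0.369 to 0.797 in untreated retinas, so the wildtype dox retinas were the lowest of the 12 and the PRDM13-OE dox retinas the highest. Its call was lost without the wildtype dox retinas 1 and 2 (adjusted p = 0.173), as was that of Gje1 (adjusted p = 0.0584). Ovca2, a serine hydrolase, had the same arrangement at 7.44 to 7.86 CPM, 4.11 to 4.46 CPM and 4.6 to 6.42 CPM, with an interaction of 1.06 ± 0.20 (SE), which fell under the cutoff at 0.99 without the untreated wildtype retina 1 and had an adjusted p of 0.0692 without all 3 of the libraries that stood apart.

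**Figure D2:**
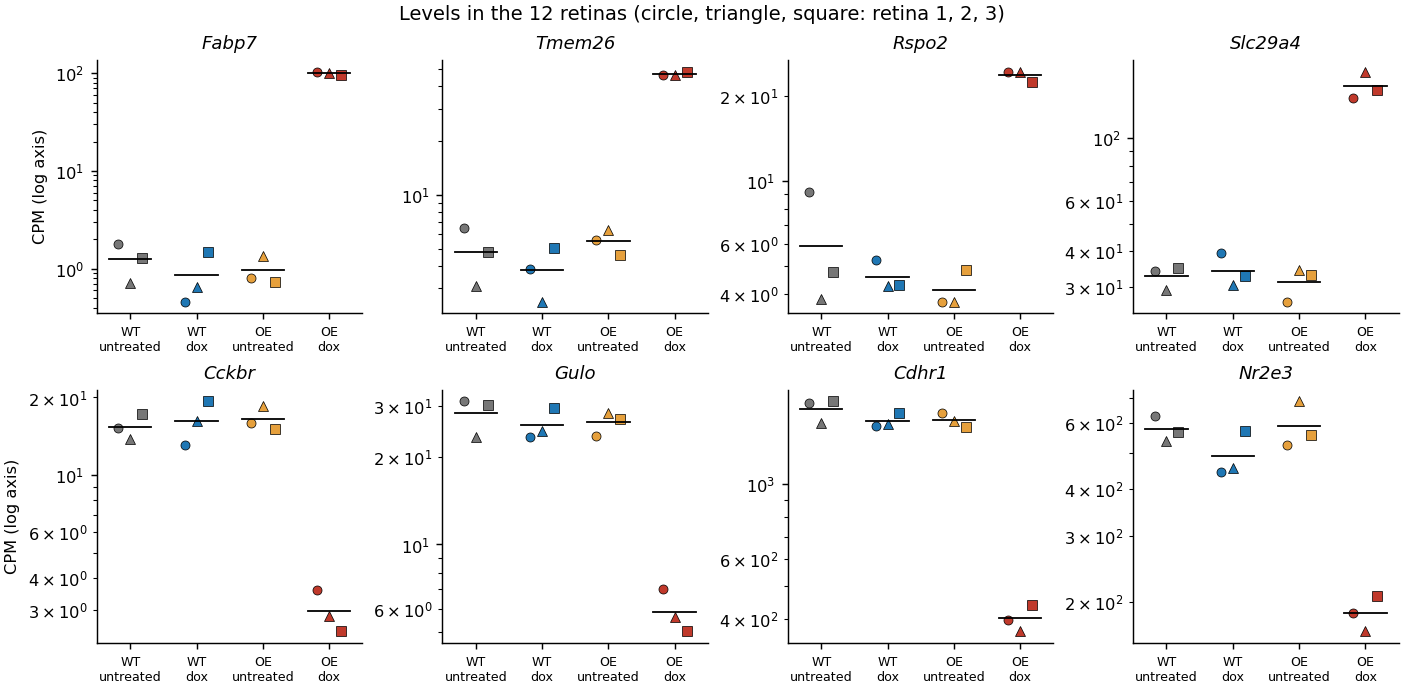
CPM of 8 called genes (log axis) in the 4 groups, with a circle, triangle and square for retinas 1, 2 and 3 and a line at the group mean. Fabp7, Tmem26, Rspo2 and Slc29a4 are highest in all 3 PRDM13-OE retinas with dox, and Cckbr, Gulo, Cdhr1 and Nr2e3 are lowest there.

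Cone phototransduction was the retinal list with the largest share of called genes. Of 11 members tested, 6 were called lower and 1 higher, and the median interaction was -1.03 against 0.01 over all genes tested. The summed level of the list was 902 to 973 CPM in PRDM13-OE with dox and 1591 to 1847 CPM in the other 9 retinas. Compared per length in untreated wildtype, the short-wavelength opsin Opn1sw was the most abundant (200.2 FPKM), followed by the medium-wavelength opsin Opn1mw (115 FPKM), Gnb3 (97.2), Gnat2 (66.4), Arr3 (48.7) and Pde6c (33.3).

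Both cone opsins, which catch the light, fell. Opn1mw was at 75.7, 54.3 and 84.3 CPM in PRDM13-OE with dox and at 177, 198 and 190.2 CPM in the retinas labelled untreated PRDM13-OE. The wildtype retinas had 161, 201 and 205 CPM with dox and 208, 192 and 188 CPM without, which overlapped with each other and with the untreated PRDM13-OE group. The interaction was -1.35 ± 0.17 (SE) (adjusted p = 0.000119 by edgeR). Opn1sw lay at 223 to 264 CPM against 474 to 608 CPM in the other 9, with an interaction of -1.03 ± 0.12 (SE) (adjusted p = 6.67e-05). That value is close to the cutoff of 1: it was -0.98 without the retina labelled untreated PRDM13-OE 1, and between -1.10 and -0.93 over the 12 fits that left out 1 retina, 8 of which called it. The other 3 losses came without the PRDM13-OE dox retina 1, the wildtype dox retina 1 and the untreated wildtype retina 2, with the adjusted p at 0.000294 or less in all 12 fits.

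Cone transducin, the G protein that the opsins activate, fell in 2 of its 3 subunits. The alpha subunit Gnat2 (ENSMUSG00000009108, chr3:108000105-108008748) was at 52.1, 48.1 and 52.6 CPM in PRDM13-OE with dox, at 201, 188 and 197 CPM in the retinas labelled untreated PRDM13-OE, at 175, 179.5 and 194 CPM in wildtype with dox and at 211, 225 and 216 CPM in untreated wildtype. Its mean was 3.84-fold lower with dox in PRDM13-OE, and its adjusted p of 8.3e-09 by edgeR was the smallest of the experiment (interaction -1.69 ± 0.08 (SE)). The beta subunit Gnb3 was at 72.7 to 76 CPM in the induced retinas and at 229 to 315 CPM in the other 9 (interaction -1.81 ± 0.14 (SE), adjusted p = 5.92e-07). The gamma subunit Gngt2 was at 30.3 to 41.4 CPM over all 12 retinas, with overlapping groups and an interaction of 0.02 ± 0.15 (SE) (adjusted p = 0.98).

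The phosphodiesterase of cones gave the only higher call of the list. Pde6c (ENSMUSG00000024992, chr19:38121229-38172406), its catalytic subunit, was at 203, 238 and 235 CPM in PRDM13-OE with dox. The retinas labelled untreated PRDM13-OE had 93.6, 79.8 and 87.6 CPM, the wildtype retinas with dox 78.6, 96.2 and 97.2 CPM and the untreated wildtype retinas 123, 105 and 95.4 CPM. All 3 induced retinas were above the other 9, and the interaction was 1.62 ± 0.14 (SE) (adjusted p = 2.66e-06 by edgeR), or 1.68 without the retina labelled untreated PRDM13-OE 1. The group mean of Pde6c in FPKM was 68.5 with dox in PRDM13-OE. Pde6h, the inhibitory subunit of the same enzyme, was lower within the fold cutoff, at 89.3 to 99.8 CPM in the induced retinas and 128 to 150.1 CPM in the other 9 (interaction -0.51 ± 0.09 (SE), adjusted p = 0.00348).

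Downstream of the enzyme, the cation channel of cones passed in 1 of its 2 subunits. Cnga3 was at 8.94, 5.6 and 9.81 CPM with dox in PRDM13-OE against 20.2 to 27.4 CPM in the other 9 retinas, and its interaction was -1.49 ± 0.22 (SE) (adjusted p = 0.000545 by edgeR). Cngb3, the modulatory subunit, was also lowest in the 3 induced retinas at 16 to 17.9 CPM against 21.7 to 31.5 CPM, but the untreated wildtype retinas were the highest and the interaction was -0.29 ± 0.13 (SE) (adjusted p = 0.31). Arr3, cone arrestin, which shuts the opsins off, was at 22.1, 18.6 and 25.9 CPM in PRDM13-OE with dox. The other groups had 79, 64.6 and 111 CPM in the retinas labelled untreated PRDM13-OE, 79.2, 92.1 and 87 in wildtype with dox and 122, 150.2 and 105 in untreated wildtype. Its interaction was -1.39 ± 0.23 (SE) (adjusted p = 0.00187), and the change with dox in wildtype was -0.54 ± 0.16 (SE) on the log2 scale, which did not pass the test. The call of Arr3 was lost under robust fitting (interaction -1.39, adjusted p = 0.0573 by edgeR). The exchanger Slc24a2 had an interaction of -0.25 (adjusted p = 0.359).

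**Figure D3:**
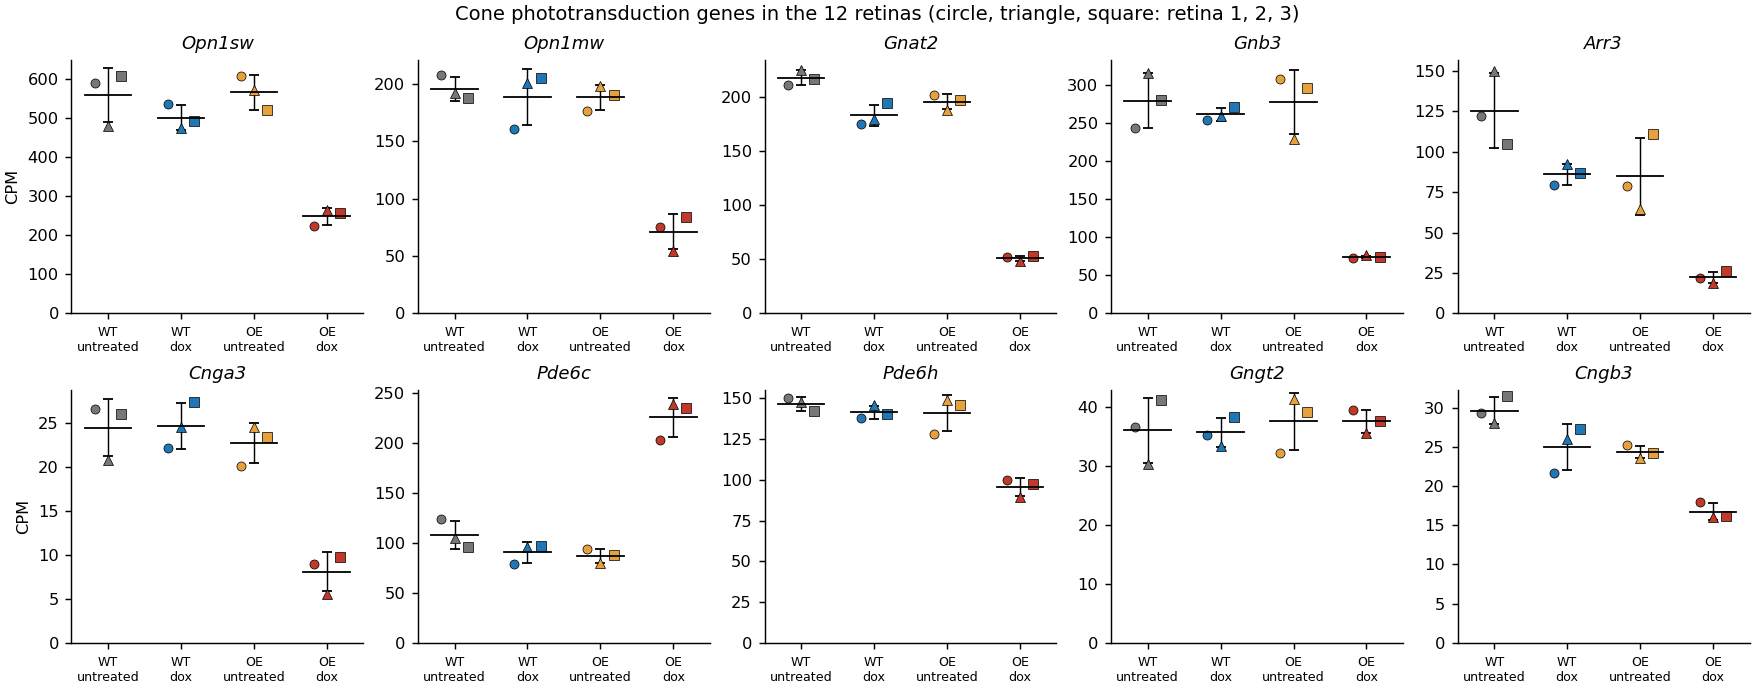
CPM (linear axis from 0) of 10 cone phototransduction genes in each retina, with the group mean and SD over 3 retinas. The PRDM13-OE retinas with dox are lowest for Opn1sw, Opn1mw, Gnat2, Gnb3, Arr3, Cnga3, Pde6h and Cngb3, highest for Pde6c and within the range of the others for Gngt2.

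Rod phototransduction moved less in fold. Of the 20 genes on the list, some of which serve cones too, 2 were called lower and 0 higher. The median interaction was -0.38, and 10 passed an adjusted p under 0.05 on the lower side against 1 on the higher side. The summed level was 59247 to 67252 CPM in PRDM13-OE with dox and 78383 to 85831 CPM in the other 9 retinas. Rgs9, which speeds the shut-off of transducin in rods and cones, was at 131, 144 and 159.9 CPM in the induced retinas and at 323 to 431 CPM in the other 9 (interaction -1.33 ± 0.13 (SE), adjusted p = 8.87e-06 by edgeR). Guca1a, an activator of the guanylate cyclase that remakes cyclic GMP, was at 1.69 to 2.95 CPM in the other 9 retinas and at 0.22 to 1.02 CPM in PRDM13-OE with dox. Its call (interaction -1.92, adjusted p = 0.0431) was kept in only 2 of the 12 fits that left out 1 retina, with an adjusted p of up to 0.108.

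Other genes of the list changed by smaller folds. Gnat1, the rod transducin alpha subunit, was at 5267, 5409.5 and 6271 CPM in PRDM13-OE with dox and at 7333 to 8371 CPM in the other 9 retinas, which is an interaction of -0.43 ± 0.08 (SE) (adjusted p = 0.00263 by edgeR), inside the fold cutoff. Larger interactions were measured for Grk1, the kinase that shuts off the opsins of rods and, in mice, of cones, at -0.95 ± 0.12 (SE), and for the rod exchanger Slc24a1 at -0.76 ± 0.08 (SE). The induced retinas lay below the other 9 for each of these 3 genes.

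Among photoreceptor transcription regulators, 3 of 18 were called lower and 0 higher (median -0.13), and at an adjusted p under 0.05 alone 7 were lower and 3 higher. Nr2e3, the nuclear receptor that represses cone genes in rods, was at 187, 167 and 208 CPM in PRDM13-OE with dox. It was at 524, 687 and 558 CPM in the retinas labelled untreated PRDM13-OE, at 445, 455 and 574 in wildtype with dox and at 629, 537 and 567 in untreated wildtype. All 3 induced retinas lay under the lowest of the other 9, with an interaction of -1.42 ± 0.15 (SE) (adjusted p = 2.41e-05 by edgeR). Samd11, a repressor complex subunit of rods, was at 73.1 to 89.1 CPM in the induced retinas and at 184 to 231 CPM in the other 9 (interaction -1.36 ± 0.12 (SE)). Mef2c was at 38 to 44.7 CPM in the induced retinas and at 79.1 to 112 CPM in the other 9 (interaction -1.11 ± 0.15 (SE)), and was inside the cutoff at -0.98 without the retina labelled untreated PRDM13-OE 1 and at -0.89 without the wildtype dox retinas 1 and 2. Lower interactions that passed the adjusted p but not the cutoff were Mef2d at -0.89, Casz1 at -0.84, Nrl at -0.56 and Prdm1 at -0.98. Rorb, a nuclear receptor of photoreceptor development, had a higher interaction of 0.68 ± 0.17 (SE) and Otx2, which acts upstream of Crx, one of 0.30 ± 0.07 (SE), while Crx, the factor that switches on photoreceptor genes, had 0.00 ± 0.06 (SE) (adjusted p = 1).

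Genes of the outer segment, cilium and photoreceptor maintenance gave 5 lower and 0 higher calls of 28 (median -0.37). Cdhr1 (ENSMUSG00000021803, chr14:36799814-36820304, minus strand), a cadherin at the base of the outer segment, was at 397, 367 and 438 CPM in PRDM13-OE with dox, at 1622, 1537 and 1478 in the retinas labelled untreated PRDM13-OE, at 1485, 1504 and 1626 in wildtype with dox and at 1744, 1518 and 1761 in untreated wildtype. The gap between the induced retinas and the other 9 was larger than the spread within groups, at a mean 3.86-fold lower with dox in PRDM13-OE (interaction -1.82 ± 0.10 (SE), adjusted p = 8.7e-09 by edgeR). Tulp1, which carries proteins to the outer segment, was at 424 to 500.1 CPM in the induced retinas and at 1286 to 1487 CPM in the other 9 (interaction -1.52 ± 0.09 (SE)). Aipl1, a chaperone of phosphodiesterase 6, was at 397 to 454 CPM in the induced retinas and at 849 to 940.1 CPM in the other 9 (interaction -1.10 ± 0.07 (SE)). Fscn2, an actin bundling protein, had an interaction of -1.22 ± 0.10 (SE), and Nxnl2, a thioredoxin-like gene needed for photoreceptor survival, had -1.20 ± 0.10 (SE). Others of the list did not pass, such as Rdh12, a retinol dehydrogenase, at -0.10 ± 0.08 (SE) (adjusted p = 0.651) and the retinoid carrier Rbp3 at -0.11 ± 0.08 (SE) (adjusted p = 0.617). Rtbdn, a riboflavin-binding protein of rods that was named after its values were seen, was at 251 to 273 CPM in the induced retinas and at 613 to 708 CPM in the other 9 (interaction -1.36 ± 0.08 (SE), adjusted p = 2.99e-08).

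At the photoreceptor synapse 1 of 16 genes was called lower (median -0.09). That gene, Elfn1, an adhesion protein that pairs rods with bipolar cells, was at 57.1 to 60.1 CPM in PRDM13-OE with dox and at 105 to 131 CPM elsewhere (interaction -1.03 ± 0.11 (SE), adjusted p = 2.6e-05 by edgeR). It sat close to the cutoff, and was called in 9 of the 12 fits that left out 1 retina, with a lowest size of -0.93 without the second untreated PRDM13-OE retina. The call was also lost without the wildtype dox retina 1, without the untreated wildtype retina 3 and without the wildtype dox retinas 1 and 2 together (-0.99).

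**Figure D4:**
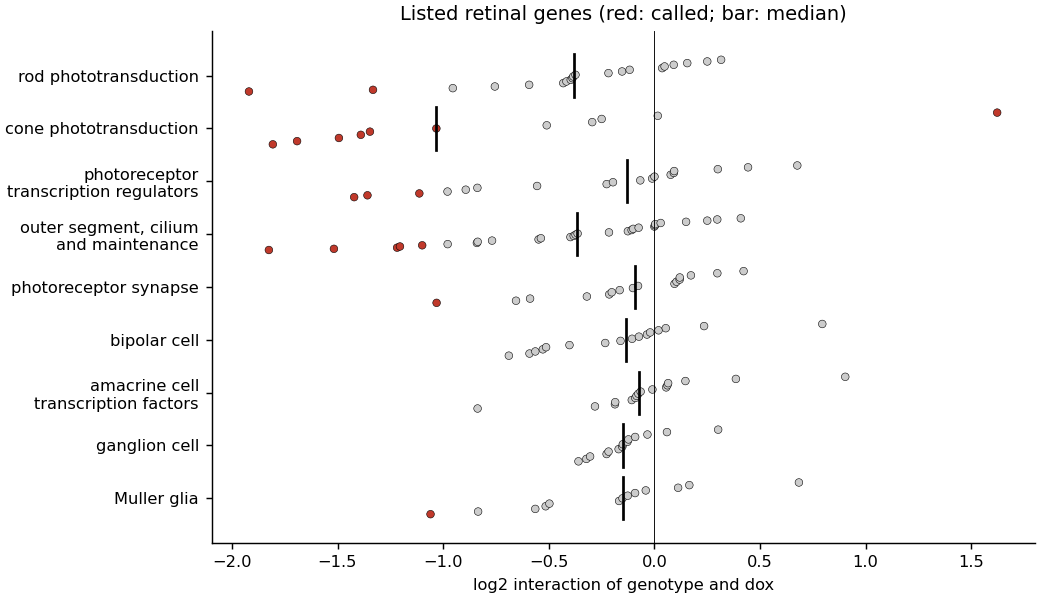
Log2 interaction of each tested gene in 9 retinal gene lists, with called genes in red, other genes in grey and a bar at the median of each list. The cone list has the lowest median, -1.03, and the amacrine transcription factors have no called gene.

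The lists of inner retinal cells held 0 or 1 call each, where 0.870% of all genes tested were called in either direction. The amacrine transcription factors had 0 calls among 16 tested (median -0.07, smallest adjusted p = 0.257 by edgeR), and the amacrine transmitter genes had 1 lower call of 27 (median -0.17). That call was Cckbr, a cholecystokinin receptor. It was at 3.59, 2.86 and 2.48 CPM in PRDM13-OE with dox, at 15.9, 18.6 and 15.1 CPM in the retinas labelled untreated PRDM13-OE, at 13, 16.2 and 19.3 CPM in wildtype with dox and at 15.3, 13.8 and 17.2 CPM in untreated wildtype. The induced retinas held less than the other 9 by a wide margin, a mean 5.56-fold lower than untreated PRDM13-OE, with an interaction of -2.55 ± 0.22 (SE) (adjusted p = 3.17e-06). The amacrine genes Ebf3 (-0.19 ± 0.12 (SE), adjusted p = 0.535), Npy (-0.08 ± 0.27 (SE), adjusted p = 0.928) and Th, the dopamine-making enzyme (0.13 ± 0.25 (SE), adjusted p = 0.873), did not pass. Outside these lists, the study also counts Gulo, Mef2c, Slc6a13, Igfbp7 and Chrnb4 as amacrine-related, and they were called lower. Of these, all but Gulo lost the call in some fits that left out 1 retina. Crybb3, Abi3bp, Vdr and Robo3, which the study groups with them, were not called.

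Bipolar cell genes had 0 calls of 16 (median -0.13), ganglion cell genes 0 of 14 (median -0.15) and horizontal cell genes 0 of 5 (median -0.40). At an adjusted p under 0.05 by edgeR with no fold cutoff, 3 bipolar genes were lower and 1 was higher. The higher one, within the fold cutoff, was Cabp5, a calcium-binding protein. It was at 136 to 147 CPM in the induced retinas and at 68.8 to 83.5 CPM in the other 9 (interaction 0.79 ± 0.10 (SE), adjusted p = 8.88e-05 by edgeR). Septin4, on the horizontal cell list, was at 77 to 77.4 CPM in the induced retinas and at 128 to 156 CPM in the other 9 (interaction -0.97 ± 0.10 (SE), adjusted p = 1.48e-05). Müller glia genes gave 1 lower call of 13 (median -0.15), clusterin (Clu), a secreted chaperone, at 502 to 558 CPM against 753 to 1057 CPM. In Clu the change with dox was -0.71 ± 0.08 (SE) in PRDM13-OE and 0.35 ± 0.08 in wildtype, so opposite shifts added up to an interaction of -1.06 ± 0.11 (SE) (adjusted p = 1.58e-05), which was -0.96 without the retina labelled untreated PRDM13-OE 1. It was also inside the cutoff without the wildtype dox retinas 1 and 2 (-0.92), with a covariate for the crystallins (-0.94) and with library size in place of TMM (-0.99). The water channel Aqp4 of the same glia had a higher interaction within the cutoff, 0.68 ± 0.10 (SE) (adjusted p = 0.000461).

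Receptors, a transporter and metabolic genes outside those lists were among the lower calls. Htr3a, a serotonin-gated ion channel, was at 0.942, 0.0549 and 0.755 CPM in PRDM13-OE with dox and at 3.2 to 5.64 CPM in the other 9 retinas (interaction -3.30 ± 0.52 (SE), adjusted p = 0.00115 by edgeR). Gulo, the last enzyme of vitamin C synthesis, was at 7.00, 5.6 and 5.01 CPM in PRDM13-OE with dox, at 23.7, 28.4 and 27 in the retinas labelled untreated PRDM13-OE, at 23.4, 24.6 and 29.6 in wildtype with dox and at 31.2, 23.5 and 30.2 in untreated wildtype. Its 3 induced retinas were below all others (interaction -2.04 ± 0.19 (SE), adjusted p = 5.56e-06). The nicotinic receptor subunit Chrnb4 had an interaction of -1.33 (adjusted p = 0.0414) that was called in 3 of the 12 fits leaving out 1 retina. The GABA transporter Slc6a13 was at 19.3, 18.7 and 20.5 CPM in wildtype with dox and at 24.9, 2.22 and 9.41 CPM in the retinas labelled untreated PRDM13-OE, the first of which was the highest of all 12. Its interaction of -2.53 (adjusted p = 0.0439) became -1.47 (adjusted p = 0.108) without that retina, and it was called in 1 of the 12 such fits.

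The list of 22 progenitor and neurogenesis genes had 1 higher call (Fabp7) and 2 lower calls, Hes5 and Dll1 (median 0.02). Hes5, a transcriptional repressor that Notch switches on, was at 1.65, 2.31 and 3.29 CPM in PRDM13-OE with dox. It was at 5.21, 5.9 and 6.58 CPM in the retinas labelled untreated PRDM13-OE, at 10.1, 7.79 and 9.29 in wildtype with dox and at 7.93, 5.9 and 5.00 in untreated wildtype. The induced retinas were the 3 lowest and the wildtype dox retinas reached the highest values (interaction -1.81 ± 0.31 (SE), adjusted p = 0.00224 by edgeR). The Notch ligand Dll1 was at 5.41 to 9.17 CPM in the induced retinas and at 15.8 to 19.8 CPM in the other 9 (interaction -1.28 ± 0.20 (SE), adjusted p = 0.00115). Within the cutoff, Notch1 had -0.82 ± 0.17 (SE) and Hes1, from the Müller glia list, -0.83 ± 0.15 (SE), both with an adjusted p under 0.05 by edgeR. Other genes of the Notch pathway on the list did not pass, with Hes6 at 0.28, Hey1 at -0.06, Hey2 at 0.37, Dll3 at 0.36 and Dll4 at 0.11. Sox8, of the Sox family, was a called gene that the deposited annotation puts in a transcription factor family. It was named after its values were seen, at 8.89, 7.8 and 7.33 CPM in PRDM13-OE with dox against 26.5 to 34.6 CPM (interaction -1.99 ± 0.15 (SE), adjusted p = 4.55e-07). Padi2, an enzyme that turns arginine into citrulline, was named in the same way. It was at 18.6 ± 1.3 CPM (SD, n = 3) in PRDM13-OE with dox against 58.9 to 65.1 CPM (interaction -1.77 ± 0.10 (SE), adjusted p = 8.7e-09).

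Red blood cell genes gave 4 lower calls of 5, the largest share of any list, with a median interaction of -5.85, or -4.25 with groups at or under 3 counts set to that floor. Hbb-bs, an adult beta globin, was at 0.118, 0.439 and 0.377 CPM in PRDM13-OE with dox, at 30.8, 13.6 and 19.9 CPM in the retinas labelled untreated PRDM13-OE, at 16.6, 35 and 17.9 in wildtype with dox and at 36.8, 11.6 and 15.3 in untreated wildtype. The other 9 retinas varied among themselves by over 3-fold, and the induced retinas were under 1 CPM, a mean 68.8-fold below untreated PRDM13-OE (interaction -6.18 ± 0.76 (SE), adjusted p = 9.79e-05 by edgeR). Hba-a1, an alpha globin, was at 0.275 to 0.485 CPM against 7.81 to 31.5 CPM (interaction -5.85 ± 0.78 (SE), adjusted p = 0.000212). Hba-a2 had 0 counts in every induced retina, and the mean of untreated PRDM13-OE was at least 9.11-fold higher than the floor of 3 counts per library. Hbb-bt was lost to an adjusted p of 0.0579 without the PRDM13-OE dox retina 2 and to 0.0684 without the wildtype dox retinas 1 and 2. Reads can be split between the near-identical copies Hba-a1 and Hba-a2 and between Hbb-bs and Hbb-bt, so the share of each copy is uncertain. Alas2, the heme synthesis enzyme of red cells, was likewise at 0.0549 to 0.162 CPM against 0.234 to 2.82 CPM, but did not pass by edgeR (interaction -3.45 ± 1.02 (SE), adjusted p = 0.0887), whereas DESeq2 called all 5 genes lower. Summed over the list, the induced retinas had 0.71 to 1.19 CPM and the other 9 had 21.6 to 77.9 CPM. Whether this came from blood left in the tissue was not tested.

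Of 11 endothelial genes 2 were called lower (median -0.54), and the summed list was at 256 to 288 CPM in PRDM13-OE with dox and at 387 to 493 CPM elsewhere. Kdr, a receptor of vascular endothelial growth factor, was at 92 to 113 CPM in the induced retinas and at 195 to 253 CPM in the other 9 (interaction -1.24 ± 0.14 (SE), adjusted p = 4.92e-05 by edgeR). Tie1, a vascular receptor kinase, had an interaction of -1.04 ± 0.20 (SE) (adjusted p = 0.00612), and was inside the cutoff at -0.98 without the retina labelled untreated PRDM13-OE 1 and at -0.93 without the untreated wildtype retina 2, while without the wildtype dox retinas 1 and 2 its adjusted p was 0.0767.

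Several lower calls rested on the wildtype dox retinas 1 and 2, the libraries with the high lens crystallins. These 2 retinas were both above the other 10 in 20 of the 116 lower genes, which 2.77% of all genes were, and in 5 of these 20 the PRDM13-OE dox retinas did not stand apart. Cryab, a lens crystallin that is also a small heat shock protein, was at 1502, 938 and 48.2 CPM in wildtype with dox and at 25.7, 26 and 27.4 CPM in PRDM13-OE with dox. The untreated retinas had 35.6 to 116 CPM. With all 12 libraries the interaction was -4.09 ± 0.95 (SE) (adjusted p = 0.0227 by edgeR), and without the wildtype dox retinas 1 and 2 it was 0.02 (adjusted p = 0.992). The basement membrane genes Col4a1, at 259, 645 and 36.7 CPM in wildtype with dox, and Nid1, at 79, 138 and 6.43 CPM, were both named after their values were seen. Their interactions went from -3.48 to -0.39 and from -3.65 to -0.12 without these 2 retinas. Igfbp7, a secreted binding protein, went from -2.45 to -0.52, and the surface protein Cd24a from -2.83 to -0.63. Of the 12 fits that left out 1 retina, Nid1 was called in 1, Cd24a in 3, Igfbp7 in 4, Cryab in 6 and Col4a1 in 8. The part of the lens signal in these interactions was not tested beyond these values.

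Other genes with high values in the wildtype dox retinas 1 and 2 were also low in the induced retinas. Lgals3, the sugar-binding protein galectin-3, was at 0.177, 0.33 and 0.593 CPM in PRDM13-OE with dox, at 2.08, 1.64 and 1.78 in the retinas labelled untreated PRDM13-OE, at 6.57, 7.41 and 2.62 in wildtype with dox and at 1.36, 1.8 and 1.86 in untreated wildtype. Both dox groups were apart from the rest in opposite directions, and the interaction was -4.01 ± 0.56 (SE) with all libraries and -2.93 without the wildtype dox retinas 1 and 2 (adjusted p = 0.000357 and 0.0101 by edgeR). Ccdc80, a matrix protein, had an interaction of -2.30 ± 0.50 (SE), and Pmp22, a membrane protein of myelin, had -1.26 ± 0.23 (SE). Both calls were lost without these 2 libraries, Ccdc80 at -1.26 (adjusted p = 0.347) and Pmp22 at -0.67 (adjusted p = 0.122). Spon2, a matrix protein, was at 4.12, 14 and 2.5 CPM in wildtype with dox and 0.809 to 1.12 CPM in PRDM13-OE with dox, and its interaction of -3.45 became -1.99 (adjusted p = 0.0785) without those 2 libraries.

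**Figure D5:**
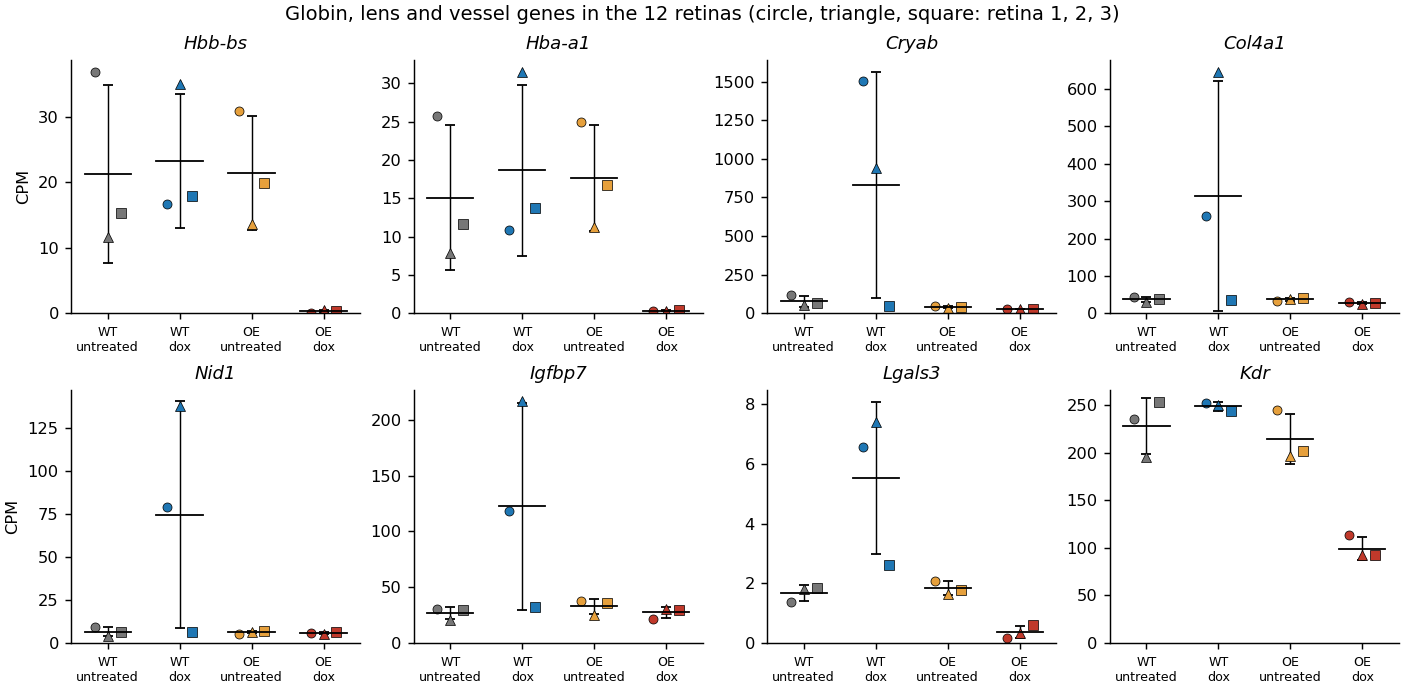
CPM (linear axis from 0) in each retina of 8 called genes from the red blood cell, lens, basement membrane and endothelial groups, with the group mean and SD over 3 retinas. Hbb-bs and Hba-a1 are under 1 CPM in all 3 PRDM13-OE retinas with dox, whereas Cryab, Col4a1, Nid1 and Igfbp7 are highest in the wildtype dox retinas 1 and 2.

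The remaining marker lists of tissues around the retina had no other call by edgeR. Besides Cryab, 0 of the 15 other crystallins and 0 of 12 other lens genes were called by edgeR, whereas DESeq2 called 5 of the 16 crystallins (Cryba4, Crybb1, Crybb2, Crybb3 and Cryab) and 2 of the 12 other lens genes lower, and the medians were -5.07 (-4.93 at the floor) for the crystallins and -3.04 for the other lens genes. The pigment epithelium list had 0 calls of 14 (median -0.84) and summed to 88.2 to 501 CPM, with the highest value in the retina labelled untreated PRDM13-OE 1. There were 0 calls of 10 for fibroblast and sclera (median -1.64), 0 of 6 for skeletal muscle (median -2.50, or -2.34 at the floor) and 0 of 5 for surface epithelium (median -1.39). A single library stood apart in each of the last 2 lists. Skeletal muscle genes summed to 37.8 CPM in the retina labelled untreated PRDM13-OE 1 and to 4.48 to 7.64 CPM in the other 11, and surface epithelium genes to 17.2 CPM in the wildtype dox retina 2 and to 0.68 to 2.76 CPM in the other 11.

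Stress and housekeeping lists had 0 calls by edgeR: glial reactivity and photoreceptor stress, 20 genes (median -0.14), microglia, 15 (0.15), interferon response, 19 (0.04), p53 targets, 14 (-0.13), the ATF4 stress response, 19 (-0.08), the mitochondrial genome, 13 (0.10), the circadian clock, 18 (-0.01), and immediate early genes, 18 (0.29). The microglia list summed to 124 to 136 CPM in PRDM13-OE with dox and to 87.7 to 120 CPM in the other 9 retinas, and all 3 induced retinas lay above the other 9 in 6 of its 15 genes, as they did in 4.52% of all genes tested. Over the 18 lists with 0 calls, 50 of 245 tested genes (20.4%) had p under 0.05 before adjustment, against 14.4% of all genes tested. DESeq2 called 3 of the 245, 2 of them lower lens genes and 1 a higher gene of glial reactivity and photoreceptor stress. On the ATF4 list 1 gene was lower at an adjusted p of 0.00244 by edgeR, inside the fold cutoff. The 12 PRDM family genes also had 0 calls (median -0.03), with Prdm1 and Prdm8 lower at an adjusted p under 0.05 by edgeR. Of 29 tested genes on a list drawn from those the study names, which leaves some of them out, 15 were called lower and 1 higher (median -1.33). The study chose them on these samples, so this count is not independent evidence. Robo3 (1.37 ± 0.62 (SE), adjusted p = 0.315) and the vitamin D receptor Vdr (1.64 ± 0.50 (SE), adjusted p = 0.104) had positive interactions that did not pass, and Ptn (0.18), Htra3 (-2.29), Crybb3 (-5.25), Tpm2 (-1.61), Slc39a12 (-1.36) and Abi3bp (-0.96) did not pass by edgeR either. Several of these values rested on a few libraries, and that of Robo3 ran from 0.67 to 1.75 over the 12 fits that left out 1 retina. Without the wildtype dox retinas 1 and 2, Htra3 was at 0.42 and Crybb3 at -0.29, and without the retina labelled untreated PRDM13-OE 1, Tpm2 was at -0.31, Abi3bp at -0.21 and Slc39a12 at -0.85. With all 3 of these libraries out, Htra3 (0.59), Tpm2 (0.36) and Abi3bp (0.12) had the opposite sign.

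Some called genes lay next to each other. Among 17384 pairs of neighbouring tested genes with at most 50000 bases between them, both were called in 11 (0.0633%), of which 8 were lower in both, 1 higher in both and 2 opposite. They included the pairs of alpha and of beta globins, Lrit2 (-1.07) beside Cdhr1 on chromosome 14, and Scara3 (-1.53), Clu and Gulo in a row on the same chromosome. In the opposite pairs, Gm17749, beside Plekho2, was called in 0 of the 12 fits that left out 1 retina. The neighbours 1700018L02Rik and Gm9895 were called in 6 and 4 of these fits. In 3 pairs the genes overlap (Col4a1 with Col4a2, Samd11 with Gm47252 and Knstrn with Gm14091). Col4a2 and Knstrn lost their calls without the wildtype dox retinas 1 and 2 (adjusted p = 0.218 and 0.0834 by edgeR), and Gm47252 was called in 6 and Col4a2 in 7 of the 12 fits that left out 1 retina. In all, 62 of the 196 called genes (31.6%) overlap some other tested gene, as do 39.3% of all genes tested. Whether the counting used the strand is not given in the sources used here, so the reads of overlapping genes may be shared.

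The eye cups of the same mice gave 0 interaction calls among 23837 genes by edgeR (1526 with p under 0.05 before adjustment, smallest adjusted p = 0.753), and DESeq2 called 15 higher and 18 lower. Of the 195 retinal calls that were tested there, 150 had the same sign (76.9%), against 53.6% of the 21269 genes tested in both tissues, and 50 had an unadjusted p under 0.05. The eye cups come from the same animals as the retinas, so they are not a separate set of mice. Fabp7 in the eye cup was at 46.7 ± 33 CPM (SD, n = 3) in PRDM13-OE with dox, 5.46 ± 1.6 untreated, 1.59 ± 1.1 in wildtype with dox and 1.45 ± 0.54 in untreated wildtype. Hbb-bs there was at 4.6 ± 0.13 CPM in PRDM13-OE with dox and at 283 ± 71, 182 ± 68 and 602 ± 620 CPM in the untreated PRDM13-OE, wildtype dox and untreated wildtype groups.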

How the data were processed

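RNA of 12 neural retinas and 12 eye cups was sequenced by Novogene for the authors, with mapping to GRCm39 (mm39). The submitters' processing notes name HISAT2 and CASAVA without versions, and the counting tool and annotation release are not given in the sources used here. The authors deposited unnormalized read counts for 56748 genes, and every test used these counts. The authors also deposited FPKM, computed from gene length and read count, which were used only to compare levels between genes. The deposited table's columns for 12 comparisons (group means, fold changes, p-values) were not used, and 0 columns of per-sample values were left unmapped.

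All 12 retinas were fitted together in edgeR 4.0.16 (R 4.3.3) with 1 coefficient per group, TMM factors and the quasi-likelihood test, for genes whose 12 counts summed to 10 or more, with Benjamini-Hochberg adjustment. The interaction and the 4 simple effects were contrasts of this fit. Separation of groups was counted on CPM. Where no library of a group exceeded 3 counts, the gene was taken as undetected in that group, and this floor covers counting error only. DESeq2 1.42.0, other filters and scalings, covariates for Xist and the crystallins and the removal of libraries were alternatives. The joint removal of 3 libraries was chosen after seeing the data. On counts simulated from these means and library sizes, the edgeR and DESeq2 steps were tested before use.

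The genes, 31 lists and tests were chosen with earlier results of these data known. Genes named are, per direction, the 8 protein-coding genes with the largest interaction where the PRDM13-OE dox retinas, or the wildtype dox retinas, stood apart (at least 10 counts in each retina of the highest group, predicted names and lens lists left out), all called list members, those of the list drawn from the study's text, Prdm13 and Gm13394, apart from items that are not reported here. Slc29a4, Prtg, Sox8, Padi2, Rtbdn, Nid1 and Col4a1 were named after their values were seen, as were the called neighbours and overlapping genes. Uncalled list members were given as examples of their lists. The mouse numbers of the labels run within a group, so a p-value measures the spread between mice. No 2 retinas of the same group differed by as little as counting noise. Numbers and figures were made with python 3.11.15, numpy 2.4.6, pandas 2.3.3 and matplotlib 3.10.9.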

Additional observations from a re-analysis of the deposited data

Results flagged for a closer look

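The effect of dox differed between the genotypes, by a test of the difference itself (the interaction term of edgeR over the 12 retinas), in 80 genes with a higher and 116 genes with a lower change in PRDM13-OE. Single retinas were not tested as outliers within their groups of 3.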

How the results depend on the processing

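The numbers of calls, 80 higher and 116 lower, stayed within 1.5 times under DESeq2 (80 and 140), an Xist covariate (79 and 110), a crystallin covariate (65 and 92), edgeR's filterByExpr (77 and 117), library size without TMM (101 and 99) and robust fitting (89 and 113). Of these calls, 69 and 111 by DESeq2, 73 and 107 with Xist, 45 and 75 with the crystallins, 76 and 111 with filterByExpr, 80 and 99 with library size and 75 and 101 with robust fitting were among the main calls. They were 269 and 413 with no fold cutoff, 21 and 29 with a log2 cutoff of 2, and 153 and 311 with no filter on counts. Without the wildtype dox retinas 1 and 2 there were 47 and 81, and without the retina labelled untreated PRDM13-OE 1 as well 52 and 86, of which 31 and 64 were among the main calls. Leaving out 1 retina gave 48 (without the PRDM13-OE dox retina 2) to 90 higher and 90 to 190 lower (190 without the wildtype dox retina 3, 166 without the second untreated PRDM13-OE retina). The interaction of Cryab turned to 0.019 without the wildtype dox retinas 1 and 2 and to 0.13 without all 3 libraries. Of 56 called genes named, which leaves out those named only as neighbours or overlapping genes, 36 kept their call without the wildtype dox retinas 1 and 2 and 39 with the crystallin covariate. In the eye cup, the 0 calls became 33 by DESeq2 and 0 to 4 on leaving out 1 eye cup. The causes of these shifts were not tested beyond the settings' own construction.

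The mouse numbers did not pair the retinas: the 18 pairs with the same number had correlations of their deviations between -0.21 and 0.17, and the fit with a replicate block on the number called 73 higher and 107 lower, 63 and 100 of them among the main calls.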
